A study of Homo sapiens with 12 samples.

Results

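The miR-181 family comprises miR-181a, b, c and d, which were followed here in KYSE150 cells, an established line of human oesophageal squamous cell carcinoma, with and without galectin-9. Members were the probes whose name, stripped of species, arm and copy number, is miR-181a, b, c or d, which gave 10 of the 2565 human miRNA probes on the array. The 10 probes cover 4 guide arms (hsa-miR-181a-5p, hsa-miR-181b-5p, hsa-miR-181c-5p and hsa-miR-181d-5p, written below without the species) and 6 passenger arms (miR-181a-3p, a-2-3p, b-3p, b-2-3p, c-3p and d-3p). The galectin-9 group held 6 samples exposed to 100 nM of this beta-galactoside-binding lectin for 6 h. The control group held 6 samples cultured without it, and the medium of both groups contained 2% serum. Total RNA was labelled with Cy5 and each sample was hybridised to an array of its own. The labels give 1 cell line and do not say that the samples were separate cultures, so p-values reflect only how these samples vary, and that variation may be technical.

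miRNAs are short RNAs that guide Argonaute proteins to messenger RNAs, mainly through pairing of the seed, the bases near their 5′ end, and lower the output of those messenger RNAs. The miR-181 hairpins lie in pairs on chromosomes 1, 9 and 19, and their guide arms carry a common seed. In mouse thymocytes miR-181a is known to set the sensitivity of the T cell receptor by lowering phosphatases that damp its signal. In human epithelial lines miR-181b has been placed downstream of STAT3, where it lowers the deubiquitinase CYLD, and miR-181 guide arms are known to target members of the BCL2 family.

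The mature sequences are shown because the guide arms differ at so few bases that a reader should judge each probe's value with its neighbours in mind. They are RefSeq sequences of the GRCh38.p14 table, matched by name for 10 of 10 members, with the seed (bases 2 to 8) in capitals. The sequences of the probes themselves were not used here.
miR-181a-5p: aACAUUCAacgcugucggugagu
miR-181b-5p: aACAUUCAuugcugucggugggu
miR-181d-5p: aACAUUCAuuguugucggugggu
miR-181c-5p: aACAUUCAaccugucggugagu
miR-181a-3p: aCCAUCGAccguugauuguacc
miR-181a-2-3p: aCCACUGAccguugacuguacc
miR-181c-3p: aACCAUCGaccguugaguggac
miR-181b-3p: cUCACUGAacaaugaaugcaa
miR-181b-2-3p: cUCACUGAucaaugaaugca
miR-181d-3p: cCACCGGGggaugaaugucac

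All 4 guide arms had the seed ACAUUCA. Counting from 1 at the 5′ end of miR-181a-5p, miR-181b-5p differed by A9U, C10U and A21G, and miR-181d-5p by these and C12U. miR-181c-5p aligned to miR-181a-5p with 22 identical bases, 0 mismatches and 1 gap. Among passenger arms, miR-181b-3p and miR-181b-2-3p had the same seed, whereas miR-181a-2-3p differed from miR-181a-3p inside the seed by U5C and C6U and beyond it by U16C. Whether a probe also takes up signal of such near-identical members was not tested.

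Both miR-181a-5p and miR-181b-5p are encoded at 2 loci, so that their probes sum over chromosomes 1 and 9. On chromosome 1 (minus strand) miR-181a-5p lies at chr1:198859108-198859130 and miR-181b-5p at chr1:198858925-198858947, 160 bases apart and within the span of the host transcript MIR181A1HG. On chromosome 9 (plus strand) the same RNAs lie at chr9:124692480-124692502 and chr9:124693725-124693747, 1222 bases apart and within the spans of MIR181A2HG and the nuclear receptor gene NR6A1. On chromosome 19 (plus strand) miR-181c-5p lies at chr19:13874725-13874746 and miR-181d-5p at chr19:13874910-13874932, 163 bases apart and within the span of NANOS3. Only the passenger arms separate the loci of miR-181a and miR-181b, since miR-181a-3p and b-3p come from chromosome 1 and miR-181a-2-3p and b-2-3p from chromosome 9.

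The files list a spot as detected where its raw intensity exceeds the mean of the array's blank spots by more than 2 SD of those blanks. By this limit 4 members (miR-181a-5p, b-5p, d-5p and a-2-3p) were detected on all 12 arrays. miR-181c-5p was detected on 11, miR-181a-3p on 10, miR-181c-3p on 7, miR-181b-3p on 5, miR-181d-3p on 4 and miR-181b-2-3p on 0. Detection over all human miRNA probes ranged from 1551 to 2045 probes on galectin-9 arrays and from 934 (control 6) to 1895 on control arrays, and the number of arrays limits the precision. Arrays fall in 3 sets of 4 by a code in their names, which is read here as the slide, and each slide held 2 galectin-9 and 2 control arrays. Galectin-9 arrays always sat at even and control arrays at odd positions, so treatment and parity of position cannot be told apart. Markers of squamous epithelium were present, with 4 of 5 (miR-205-5p, miR-203a-3p, miR-31-5p and miR-200c-3p) detected on all arrays. Of 7 miRNAs typical of blood cells, the cells in which miR-181 is best known, 1 (miR-486-5p) was detected on all arrays and 2 (miR-142-3p and miR-150-5p) on 11. Of 4 typical of mesenchyme, 1 (miR-214-3p) was detected on all arrays and 1 (miR-199a-5p) on 11. Intensities of each list were summed after quantile normalisation, with undetected probes set to the array's floor, its lowest detected normalised value. The blood list summed to 17.8 to 31.7 on galectin-9 and 23.9 to 56.2 on control arrays, and the mesenchyme list to 19.8 to 35.6 and 28.6 to 41.7. Log2 floors ranged from -0.33 to 1.23 on galectin-9 arrays and from 0.31 to 2.44 on control arrays. How much floors add to these sums was not tested. The log2 differences of the tested members lay below 0 for 6 of 6 blood miRNAs (median -0.20), for 4 of 4 mesenchyme miRNAs (median -0.39) and for 1 of 5 squamous ones (median 0.02). Of all 1734 tested probes 1099 lay below 0, with a median of -0.07. Several of these differences include floors, as miR-142-5p, miR-223-3p and miR-144-3p were detected on 6 arrays and miR-143-3p and miR-145-5p on 8. In limma 0 miRNAs of these 3 lists passed, and their part in the miR-181 values was not tested.

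Galectin-9 was compared with control to ask which miRNAs accompany its action on this tumour type. None of the 7 miR-181 probes that could be tested passed the threshold in either direction. The 4 probes detected on all arrays had log2 differences between -0.07 and -0.02 with quantile normalisation (0.20 to 0.25 with the authors' global normalisation), and their galectin-9 and control arrays overlapped. A probe was tested where at least 6 of the 12 arrays detected it. Levels are log2 of quantile-normalised background-subtracted intensity, in arbitrary units, with undetected values set to the array's floor, its lowest detected normalised value. limma called 0 of 7 members at an adjusted p under 0.05 (Benjamini-Hochberg over all 1734 probes tested), against 3 of 1734 probes, or 0.173%, in all. Without galectin-9 replicate 1 the count over all probes was 5, and that of the members stayed at 0. At an unadjusted p under 0.05, 1 of 7 members passed, with a lower level, against 12.9% of all tested probes in either direction, 4.21% toward higher and 8.65% toward lower levels. An exact permutation test called 0 of 7 members after adjustment, against 0% of all probes, and 1 of 7 without it, against 14.1%. The smallest p this test can give is 0.00216, so after adjustment a probe could pass only along with many others.

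**Figure D1:**
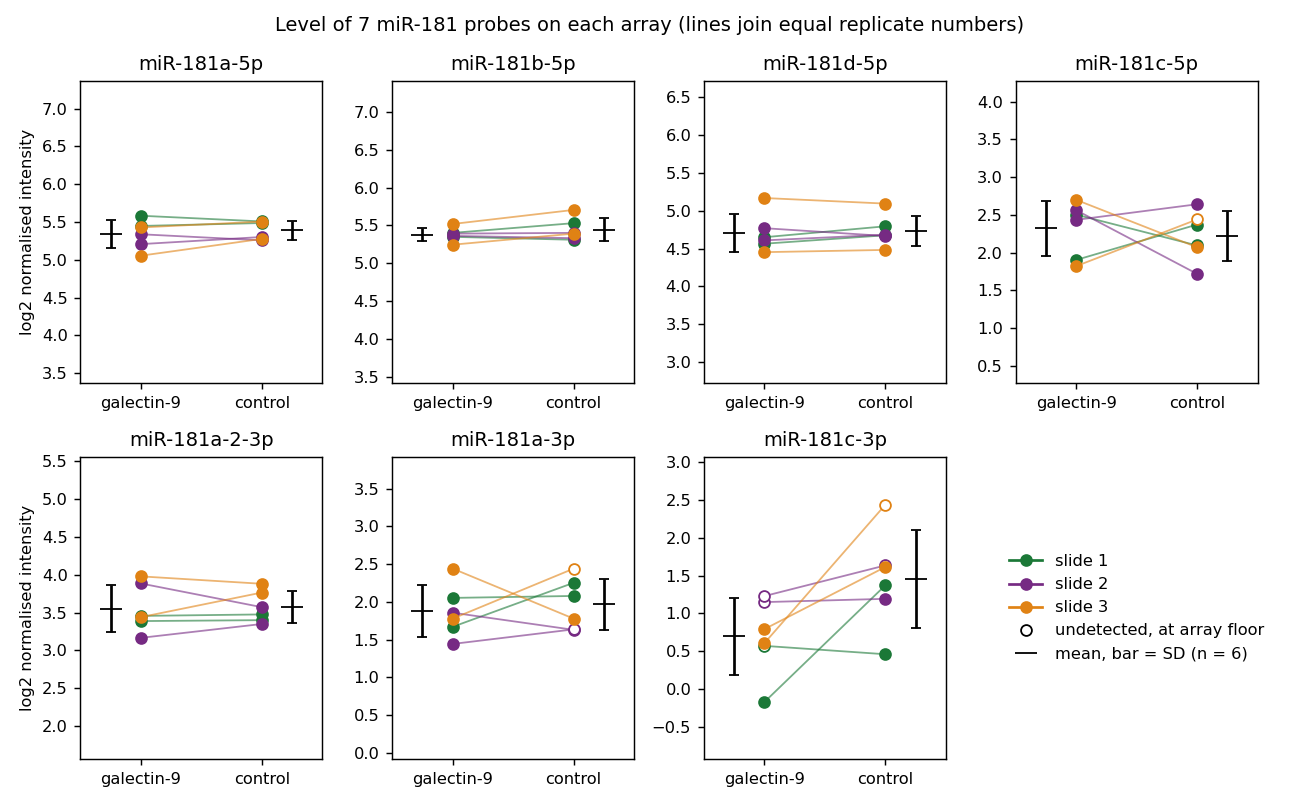
Log2 quantile-normalised intensity (vertical axes, each spanning 4 log2 units) of the 7 tested miR-181 probes on 6 galectin-9 and 6 control arrays, coloured by slide, with lines joining equal replicate numbers, open circles for undetected values set to the array's floor, and bars for mean and SD. The groups overlap for every probe, and the highest control value of miR-181c-3p, 2.44, is a floor. The floor of control 4 for that probe, 1.64, is partly covered by the filled circle of control 5.

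miR-181a-5p (MIMAT0000256), the member best studied in lymphocytes, had background-subtracted intensities of 29.1 at the lowest, 42.5 at the median and 57.2 at the highest on galectin-9 arrays, against 31.6, 39.0 and 53.1 on control arrays. The galectin-9 arrays thus spanned the whole range of the controls. After normalisation its log2 level was 5.34 ± 0.19 with galectin-9 and 5.39 ± 0.12 in control (SD, n = 6 each). The log2 difference was -0.05 with an SE of 0.11 (limma adjusted p = 0.883). This is a fold of 0.968 with a 95% interval of 0.826 to 1.14. The level was lower with galectin-9 in 4 of 6 pairs of equal replicate number, with pair differences from -0.22 to 0.08. Within slides 1, 2 and 3 it differed by 0.02, -0.01 and -0.15.

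miR-181b-5p (MIMAT0000257), the guide arm tied to STAT3 and CYLD, had intensities of 33.6, 42.9 and 50.04 (lowest, median and highest) with galectin-9, against 34.3, 40.8 and 53.3 in control. Here too the ranges nearly coincided. Its log2 level was 5.38 ± 0.09 with galectin-9 and 5.45 ± 0.15 in control (SD, n = 6 each), a fold of 0.955 with an interval of 0.831 to 1.10 (limma adjusted p = 0.792). The within-slide differences were -0.04, 0.01 and -0.17.

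miR-181d-5p (MIMAT0002821), encoded beside miR-181c, had intensities of 18.8, 27.3 and 32.4 with galectin-9, against 16.8, 25.7 and 34.3 in control. Its log2 level was 4.70 ± 0.25 with galectin-9 and 4.73 ± 0.20 in control (SD, n = 6 each). The fold was 0.979 with an interval of 0.799 to 1.20 (limma adjusted p = 0.937). In each group replicate 5 stood highest, at 5.17 with galectin-9 and 5.09 in control, and replicate 6 lowest, at 4.45 and 4.48. Within slides the difference was -0.13, 0.01 and 0.02.

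miR-181c-5p (MIMAT0000258), which differs from miR-181a-5p by the single gap, gave intensities near the limit. They were 3.61, 5.69 and 7.30 with galectin-9, where all 6 arrays detected it, against 2.49, 4.57 and 6.16 in control, where 5 did. The undetected array was control 6, whose value stands at its floor of 2.44. The log2 level was 2.32 ± 0.37 with galectin-9 and 2.22 ± 0.33 in control (SD, n = 6 each), a fold of 1.07 with an interval of 0.804 to 1.42 (limma adjusted p = 0.857). It was higher with galectin-9 in 3 of 6 pairs and lower in the other 3, from -0.62 to 0.84.

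These intervals are for quantile normalisation. The authors' global normalisation, which sets each array's median listed probe to 25, moved the median of all tested probes to 0.23, against -0.07 with quantile normalisation. Under it the log2 difference was 0.22 for miR-181a-5p, 0.20 for miR-181b-5p and 0.25 for miR-181d-5p, so these signs flipped, and 0.41 for miR-181c-5p. For miR-181a-5p and miR-181b-5p these values lie beyond the upper bounds with quantile normalisation, which were 0.18 and 0.13 on the log2 scale. Relative to the median of all tested probes, the 4 members detected on all arrays lay between -0.03 and 0.02 under that scaling and between 0.002 and 0.05 under quantile normalisation. Relative to the median of the probes detected on all arrays, they lay between -0.05 and 0 under that scaling and between -0.04 and 0.002 under quantile normalisation.

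**Figure D2:**
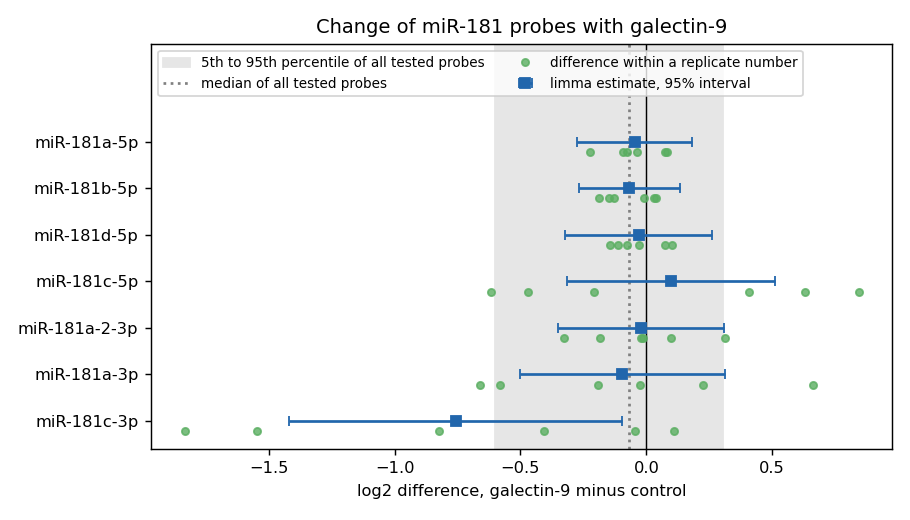
Log2 difference, galectin-9 minus control (horizontal axis), of the 7 tested miR-181 probes as limma estimates with 95% intervals (squares) and as differences within the 6 replicate numbers (circles), over the 5th to 95th percentile of all 1734 tested probes (grey, -0.60 to 0.31). The estimates of the guide arms, miR-181a-2-3p and miR-181a-3p lie inside the grey band, and that of miR-181c-3p, at -0.76, lies below it.

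Among the passenger arms, miR-181a-2-3p (MIMAT0004558) from the chromosome 9 locus was detected throughout. Its intensities were 9.70, 12.3 and 14.1 with galectin-9, against 9.04, 11.3 and 14.0 in control. The log2 level was 3.55 ± 0.31 with galectin-9 and 3.57 ± 0.21 in control (SD, n = 6 each), a fold of 0.985 with an interval of 0.783 to 1.24 (limma adjusted p = 0.964). The chromosome 1 counterpart miR-181a-3p (MIMAT0000270) was detected on 6 galectin-9 and 4 control arrays, with intensities of 2.85 to 4.99 and 1.90 to 5.76. The median intensity of miR-181a-3p was 3.94 with galectin-9 and 3.25 in control. Its log2 difference was -0.10 (95% interval -0.50 to 0.31, limma adjusted p = 0.859). That difference includes floors for control 4, at 1.64, and for control 6, whose 2.44 is the highest control value. The arms that tell the 2 miR-181a loci apart thus each had an interval that includes 0.

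miR-181c-3p (MIMAT0004559) was the member with an unadjusted p under 0.05. Its intensities were 0.995 at the lowest, 1.71 at the median and 1.97 at the highest with galectin-9, against -1.36, 2.12 and 3.14 in control. It was detected on 3 galectin-9 and 4 control arrays. The log2 level was 0.70 ± 0.51 with galectin-9 and 1.45 ± 0.65 in control (SD, n = 6 each), a difference of -0.76 with a 95% interval of -1.42 to -0.10. It did not pass over all probes (limma adjusted p = 0.322, range over the alternatives 0.239 to 0.830), and the exact permutation test gave an adjusted p of 0.349. The highest 2 control values, 2.44 for control 6 and 1.64 for control 4, were floors of arrays that did not detect the probe, and their intensities were -1.36 and 0.172. Floors ranged from -0.33 to 1.23 on galectin-9 arrays and from 0.31 to 2.44 on control arrays. The log2 difference was -0.25 with the authors' global normalisation and -0.42 without normalisation. Leaving out 1 array at a time it ran from -0.96 (without control 2) to -0.56 (without control 6), and it was -1.02 without slide 2 and -0.47 without slide 3.

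The remaining 3 passenger arms were tested for detection but not for level. miR-181b-3p was detected on 3 galectin-9 and 2 control arrays, miR-181d-3p on 3 and 1, and miR-181b-2-3p on 0 and 0. Fisher's exact test of detection called 0 of 10 members, at an unadjusted p under 0.05 as well as after adjustment, against 0% of the 2565 probes after adjustment. The share of all probes without adjustment was not counted. Only miR-181c-3p and miR-181b-3p, detected on 7 and 5 arrays, could reach an unadjusted p under 0.05 with 6 arrays per group. For the other members no split of their detected arrays could, so the lack of calls does not show that detection was alike. miR-181b-2-3p was below the detection limit on every array of both groups, and no fold is given for it.

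**Figure D3:**
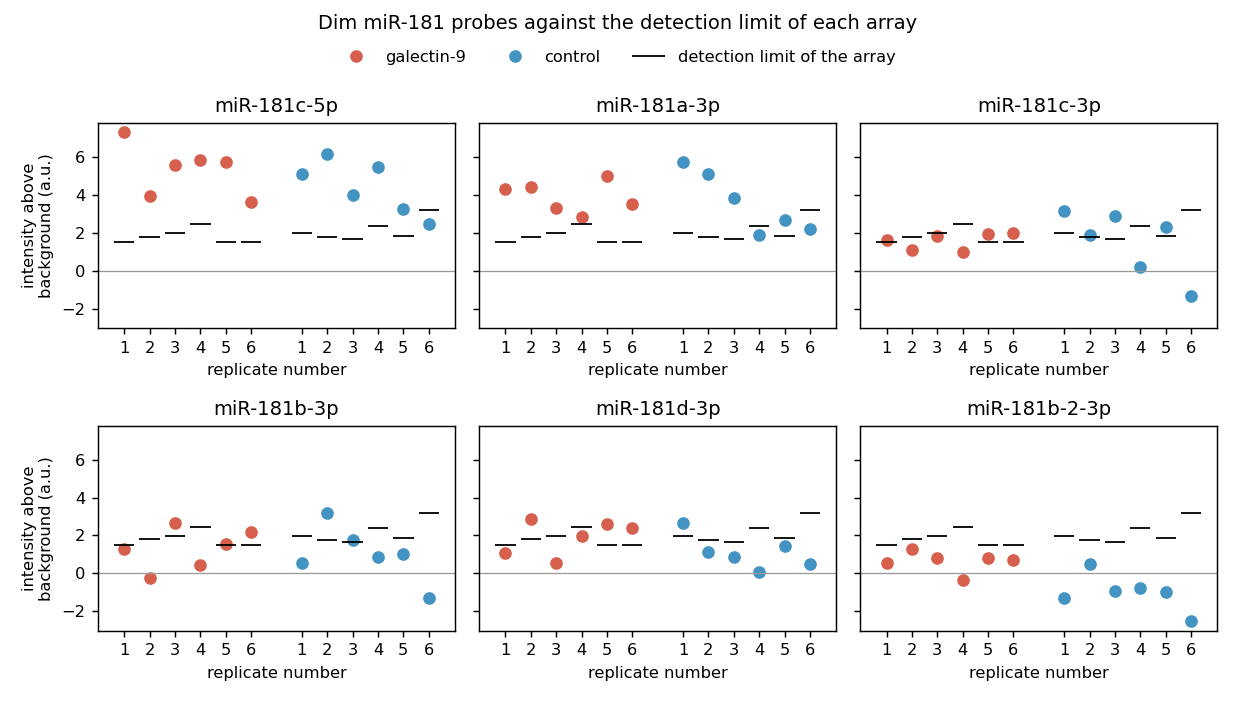
Background-subtracted intensity in arbitrary units (vertical axes) of 6 dim miR-181 probes on each galectin-9 and control array (horizontal axis, replicate number), with a bar at each array's own detection limit. miR-181b-2-3p stays below the limit on all 12 arrays, and control 6 has the highest limit, 3.19.

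The members' changes were set against each other within arrays, for the 4 probes detected throughout. The differences between their log2 changes ranged from -0.04 (miR-181b-5p minus miR-181d-5p) to 0.05 (miR-181a-2-3p minus miR-181b-5p). None of the 6 pairs passed (exact permutation test over samples, two-sided, adjusted p = 0.950 for each), and the within-group SD of these log2 ratios lay between 0.11 and 0.32. Of the 7 tested members 1 lay above 0 and 6 below, with a median of -0.05 (5 of those 6 lay above 0 with the authors' global normalisation), while 635 of all 1734 tested probes lay above 0, with a median of -0.07. Among the members below 0, miR-181a-3p and miR-181c-3p include values set to floors. Among the 891 probes detected on all arrays the median was -0.02, and limma over these probes alone called 0 of 4 members against 1.01% of the probes (0.673% higher and 0.337% lower). The arrays of the groups separated without overlap for 0 of 7 members and for 1.56% of all tested probes.

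Spread between arrays differed among the members. The pooled SD within groups was 0.12 for miR-181b-5p, and 12.3% of the 891 probes detected throughout had a smaller one. It was 0.16 for miR-181a-5p (28.1% smaller), 0.23 for miR-181d-5p (57.7%) and 0.27 for miR-181a-2-3p (69.7%). Slide was then tested with treatment in the model, a comparison chosen after the data were seen, and limma called 0 of 7 members against 0.404% of all probes, and without adjustment 1 of 7 against 8.59%. For positions 3 and 4 against 1 and 2, limma called 0 of 7 against 0.0577%. Without adjustment 2 members passed, against 17.1% of all probes, miR-181d-5p with a log2 difference of -0.28 (limma adjusted p = 0.235) and miR-181a-2-3p with -0.29 (limma adjusted p = 0.291). miR-181d-5p ranged from 4.45 to 4.68 at positions 3 and 4 and from 4.65 to 5.17 at positions 1 and 2. These positions hold replicates 2, 4 and 6 and replicates 1, 3 and 5, so position and replicate number cannot be told apart.

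Whether members vary together was examined through deviations from the group means on 12 arrays. The strongest of the 6 relations was between miR-181b-5p and miR-181d-5p, with Pearson's r of 0.819 (permutation p = 0.0021, adjusted p = 0.0126) and Spearman's rho of 0.692 (permutation p = 0.0154, adjusted p = 0.0923). These guide arms come from different chromosomes and differ by the single base C12U. Without control 5 and galectin-9 replicate 5, the arrays farthest from the median of miR-181b-5p, r was 0.520, so the relation rests in part on these arrays, both of slide 3. Since equal replicate numbers deviate together, the 12 arrays are not independent. Over the means of the 6 replicate numbers, a comparison chosen after the data were seen, r was 0.924 and rho 0.943, and neither passed over the 6 relations (exact permutation adjusted p = 0.075 and 0.1). Pooled within slides and groups r was 0.895 (exact permutation p = 0.125), where swaps within slide and group allow a smallest p of 0.0312. miR-181d-5p and miR-181a-2-3p had an r of 0.642 (permutation adjusted p = 0.0712) and a rho of 0.483 (permutation adjusted p = 0.176), and r was 0.414 without galectin-9 replicates 3 and 5. The neighbours miR-181a-5p and miR-181b-5p had an r of 0.531 (permutation adjusted p = 0.122) and a rho of 0.559 (permutation adjusted p = 0.176). miR-181a-5p and the passenger miR-181a-2-3p of the chromosome 9 locus had an r of 0.200 (permutation adjusted p = 0.528) and a rho of 0.210 (permutation adjusted p = 0.512). Within slides and groups the order differed, with the highest r, 0.957, for miR-181a-5p and miR-181d-5p (exact permutation p = 0.0312, adjusted p = 0.15). There miR-181a-5p had an r of 0.805 with miR-181b-5p and 0.718 with miR-181a-2-3p. That of miR-181a-2-3p was 0.643 with miR-181d-5p and 0.371 with miR-181b-5p, and 0 of the 6 relations passed. Within a slide and group the deviations are equal and opposite, so the 12 values are 6 differences mirrored. Each such difference also sets an earlier against a later position on the slide. Later minus earlier, the log2 difference was -0.14 for miR-181a-5p, -0.13 for miR-181b-5p, -0.28 for miR-181d-5p and -0.29 for miR-181a-2-3p. The part of position or replicate number in these r was not tested. For comparison, r over the 12 arrays between miR-181b-5p and 886 other probes ran from -0.696 at the 5th to 0.661 at the 95th percentile. Arrays share slides and normalisation, and the part of these in that spread was not tested.

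**Figure D4:**
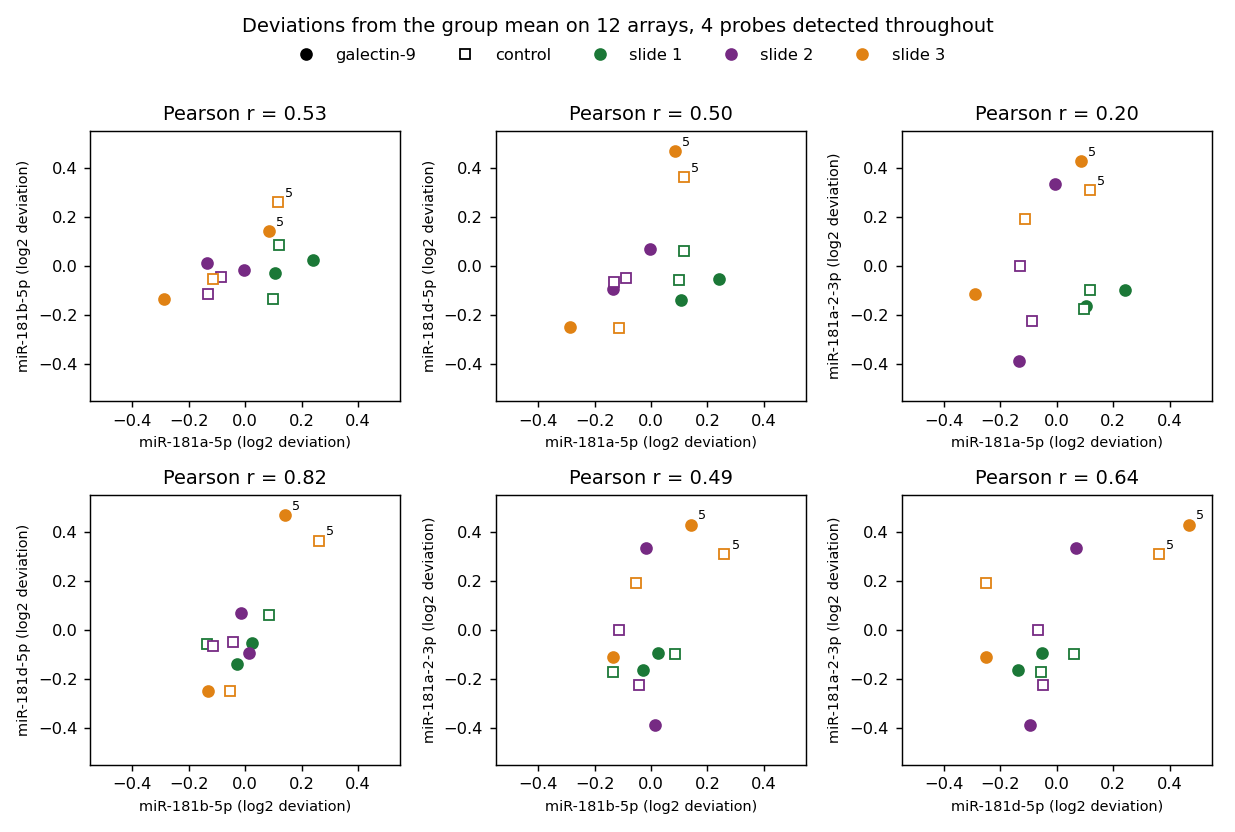
Log2 deviations from the group mean for each pair of the 4 miR-181 probes detected on all arrays, with galectin-9 arrays as filled circles, control arrays as open squares and colours for slides. The replicate 5 arrays, marked 5, lie at the upper right in the plot of miR-181b-5p against miR-181d-5p, where r is 0.82.

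The probes most like the leading members over the 12 arrays were sought among 887 others detected throughout, by Pearson's r of log2 levels and as a description. For miR-181a-5p these were miR-330-5p (r = 0.800), miR-584-3p (0.754) and miR-6756-3p (0.745). For miR-181b-5p they were miR-193b-3p (0.853), miR-6731-3p (0.845) and miR-27b-5p (0.843). None of the 6 passed for galectin-9 (limma adjusted p from 0.571 to 0.866). The other human miRNA that carries the miR-181 seed in the RefSeq table and is on the array, miR-4262 (gACAUUCAgacuaccug, chr2:11836943-11836959, minus strand), had intensities from -0.03 to 2.84 with galectin-9 and from -1.90 to 2.52 in control. It was detected on 4 galectin-9 and 2 control arrays, so that 2 galectin-9 and 4 control values were floors, and it did not pass (limma adjusted p = 0.829).

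miRNAs that share a setting or a target with miR-181 were described through lists. Of 14 miRNAs of the inflammatory circuit of STAT3 and NF-kB, 11 were tested, 6 lay above 0 and 5 below, and 0 passed in either direction in limma, with a median of 0.08. The smallest p were those of miR-21-5p, a STAT3 target (log2 difference 0.42, limma adjusted p = 0.204), and let-7c-5p, of the family that lowers RAS and HMGA2 (-0.31, limma adjusted p = 0.349). Of 15 miRNAs known to target BCL2 or MCL1, all 15 were tested, 8 lay above 0 and 7 below, and 0 passed, with a median of 0.04. There the smallest p were those of miR-204-5p (0.74, limma adjusted p = 0.276) and miR-29c-3p (0.28, limma adjusted p = 0.300). Beside them the median of all tested probes was -0.07.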

How the data were processed

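Human miRNA levels were measured on 12 single-colour 3D-Gene arrays, 6 with and 6 without galectin-9, grouped by the sample titles. The authors deposited raw, background-subtracted and globally normalised Cy5 intensity per spot, per the file headers. Scanner and image software: not given in the sources used here. Comparison of the columns showed that the subtracted background is the mean of 320 blank spots after trimming 5% at each end. The authors' deposited series table of 891 probes is linear intensity, quantile-normalised and not centred (median 12.3 in the first column).

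From these files, raw minus background was quantile-normalised over 2565 human miRNA probes, values below the 2 SD limit were set to the array's floor, and log2 was taken. The 6 human spots marked as not good, none of them a miR-181 probe, were left out. limma 3.58.1 in R 4.3.3 (lmFit, eBayes, two-sided) was fitted to the 1734 probes detected on at least 6 arrays. It was also run on simulated data drawn independently for each array, without floors, slides or pairs. That run, whose outcome is not reported here, does not show how the test behaves on these arrays. Correlations used 100000 permutations, and exact permutation tests all 924 splits into 6 and 6, of which the smallest possible p is 0.00216. Python 3.11.15 and SciPy 1.17.1 served for the rest.

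Replicate numbers were read as pairs, since deviations from group means correlated above 0.1 in 6 of 6 pairs (0.171 to 0.527). Neighbouring positions on a slide could also give this. The pairs entered the pair differences, the means of replicate numbers and the alternative with replicate number as a block. The main limma fits and the exact permutation tests between groups were unpaired, so their intervals and p-values do not use the pairing. All 10 members were named. The other named probes share the guide arms' seed, have the highest r with miR-181a-5p or miR-181b-5p, or have the smallest p of their list. The members and lists were chosen with earlier results of these data known. Alternatives were background correction, scaling, floor, filter, blocks, test, detection limit and left-out arrays or slides.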

Additional observations from a re-analysis of the deposited data

How the results depend on the processing

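In 25 alternatives limma or the exact permutation test called 0 tested members, the smallest adjusted p being 0.239. Of 168 values of single members, 142 kept their direction and 26 changed sign, none of them called. Without normalisation the log2 differences turned to 0.074 (miR-181a-2-3p), 0.084 (a-3p), 0.048 (a-5p), 0.033 (b-5p) and 0.080 (d-5p), and with the authors' global normalisation to 0.25, 0.25, 0.22, 0.20 and 0.25. miR-181a-3p turned to 0.00063 with normexp, whose offset of 50 shrinks differences of dim probes by construction, and to 0.0085 without slide 1. Its 0.00020 with a common floor shows no direction, since 11 of 12 values were set to that floor. Without slide 1 miR-181d-5p gave 0.018, without slide 2 miR-181c-5p gave -0.013, and without slide 3 miR-181a-2-3p gave 0.025 and miR-181a-5p 0.0057. Leaving out 1 array at a time gave -0.11 to 0.056 for miR-181a-2-3p, -0.094 to 0.012 for a-5p, -0.0031 to 0.20 for c-5p and -0.12 to 0.042 for d-5p. It gave -0.96 to -0.56 for miR-181c-3p, which kept its sign in 22 alternatives but stood at only -0.011 with normexp. The common floor lay at or above all 12 values of miR-181c-3p and gave none. The cause of the other turns was not tested.

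The count over all tested probes was 3. It was 19 with normexp, 17 with a common floor (473 constant probes left out), 9 in the authors' series table, 9 over probes detected on all arrays, 5 with slide as a block and 0 by exact permutation (smallest possible p 0.00216 before adjustment). With the replicate block it was 1, and the block called 0 members. It was 0 without slide 1, 2 or 3 and 2 to 5 with 1 array left out, the 5 being without galectin-9 replicate 1. The number of member pairs correlated at an adjusted p under 0.05 for Pearson's r was 1, and 6 without normalisation (0 and 5 for Spearman's rho). It was 0 over the means of replicate numbers and 0 within slides, both chosen after the data were seen. Without normalisation miR-181b-5p correlated with other probes at a median r of 0.664, against -0.06 with it. Signal over background limited the passenger arms, as 5 of 6 were at or below the limit on at least 2 arrays. No member group held an array far from the rest by Dixon's test (14 groups).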

Other observations

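miR-181b-2-3p, detected on no array, had a background-subtracted intensity of 0.638 ± 0.534 with galectin-9 and -1.001 ± 0.981 in control (SD, n = 6 each), both below the detection limit. It lay above the array's background on 5 of 6 galectin-9 and on 1 of 6 control arrays. The same held for other dark probes: of the 192 probes detected on no array, 164 had a higher mean intensity with galectin-9, with a median difference of 0.509 intensity units. The difference of 1.64 for miR-181b-2-3p exceeded that of 99.0% of these 192. This was seen after the data were examined and was not tested.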
